A study of Mus musculus with 6 samples.

Results

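The genes described here are the suppressors of cytokine signaling (SOCS) and the kinases (JAKs) and transcription factors (STATs) of the pathway they restrain, in peritoneal macrophages of mice with ovarian tumors. They were taken from the panel by symbol, as Socs, Stat or Jak followed by a digit, and 9 of the 754 genes measured are reported: Socs1, Socs2, Socs3, Stat3, Stat4, Stat5a, Stat5b, Stat6 and Jak3. The other JAKs and STATs were not analysed here.

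RNA was counted with the NanoString nCounter Myeloid Innate Immunity Panel, in which a color-coded probe pair is counted for each gene, in F4/80+ CD11b+ macrophages sorted from peritoneal lavage. Adult C57BL/6J mice had been injected with ID8 cells, a mouse ovarian cancer line, and were treated after 7 weeks with 2 i.p. doses, on day 1 and day 5. The PBS group (3 samples) received PBS, and the IRF5-NP group (3 samples) received nanoparticles carrying 30 µg of mIRF5 mRNA, which encodes interferon regulatory factor 5, a transcription factor of inflammatory macrophages. The paper's methods describe particles that carry mRNA for the kinase IKKβ as well and a different dose and tumor age, and no group here received empty particles or particles with a control mRNA, so the mRNA and the particle cannot be told apart. Both groups carried the tumor. The labels do not say whether the samples of a group came from separate animals, and the number of independent samples that the paper gives for this experiment is not the number here, so the p-values measure only the spread between these samples.

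Cytokine and interferon receptors have no kinase activity of their own and carry JAKs, which phosphorylate the receptor and then STATs. Phosphorylated STATs pair, enter the nucleus and switch on target genes, and SOCS genes are among these targets. SOCS proteins bind the activated receptor or kinase and shut the signal down, so SOCS mRNA changes with recent cytokine exposure, whereas most JAK and STAT proteins are present before the signal and are controlled by phosphorylation, which mRNA does not measure.

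The bases upstream of Socs3 and Socs1 are shown because these are the feedback genes of the set and each holds a short sequence that its known inducers can bind. Each is the 250 bases before the annotated start, from RefSeq on GRCm38.p6, minus strand, 5′ to 3′. Capitals mark TTCNNNGAA, the palindrome bound by STAT dimers, in Socs3 (chr11:117969367-117969616, 154 to 146 bases before the start) and GAAANNGAAA, the repeat bound by IRFs, in Socs1 (chr16:10785537-10785786), where the matches at 83 to 74 and at 77 to 68 bases before the start overlap.
Socs3: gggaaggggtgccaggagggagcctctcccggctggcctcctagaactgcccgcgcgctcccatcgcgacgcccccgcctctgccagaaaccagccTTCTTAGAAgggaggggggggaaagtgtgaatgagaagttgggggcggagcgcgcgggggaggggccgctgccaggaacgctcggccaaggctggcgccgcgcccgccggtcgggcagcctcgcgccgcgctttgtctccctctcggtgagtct
Socs1: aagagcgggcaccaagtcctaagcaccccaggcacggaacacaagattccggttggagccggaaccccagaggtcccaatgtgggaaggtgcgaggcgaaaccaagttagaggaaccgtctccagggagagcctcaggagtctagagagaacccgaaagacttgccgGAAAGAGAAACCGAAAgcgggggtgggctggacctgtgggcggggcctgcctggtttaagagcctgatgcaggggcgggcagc
A window was found for 8 of the 9 genes, and none for Socs2. Searched on both strands, TTCNNNGAA was present for 1 of these 8 genes (Socs3) and in 7.02% of all 32851 windows of this length, and GAAANNGAAA for 2 of them (Socs1 and Stat4) and in 2.98% of all windows. These matches are descriptions of the letters and not bound sites.

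Values are normalized counts on a linear scale, the authors' counts scaled to housekeeping genes. A value was called above background when it exceeded the average of its sample's negative control probes by more than 2 SD of those probes. Total counts over the 754 genes ranged from 683472 in IRF5-NP 3 to 1830318 in PBS 1, and IRF5-NP 3 had been scaled up by 2.60, against 0.952 to 1.25 in the other 5 samples, so that its background was 79.4 normalized counts against 25.6 to 37.8. PBS 2 and PBS 3 differed by no more than sampling noise (chi-square per degree of freedom 1.07, against 7.07 to 179 for the other pairs within a group) and were counted as 1 sample, so PBS values are given as mean ± SD with n = 2 and IRF5-NP values with n = 3. Changes are differences of log2(value + 1), IRF5-NP minus PBS, tested with limma and adjusted over all 754 genes. The probe for Irf5 itself read 2573, 1991 and 1929 normalized counts in the PBS samples and 1960, 2358 and 2294 in the IRF5-NP samples (log2 change -0.03, limma adjusted p = 0.947). The paper describes the delivered mRNA as codon-optimized and used separate qRT-PCR primers for it and for endogenous IRF5. Whether the panel's probe reads the delivered mRNA was not tested, so these values are not a measure of delivery.

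Of the 9 genes, 2 passed an adjusted p of 0.05, both lower with IRF5-NPs (Socs2 and Socs3), and 0 were higher. Over the whole panel 9.55% of genes passed, 7.03% lower and 2.52% higher. With 6 samples taken singly, the PBS and IRF5-NP values did not overlap for 3 of the 9 genes (Socs2, Socs3 and Stat4), against 37.4% of all genes. The median log2 change was -1.03 over the 3 SOCS genes and -0.0003 over the 6 STAT and JAK genes, beside -0.03 over all genes. All 3 SOCS genes had lower IRF5-NP means, and none of the 6 STAT and JAK genes passed the test. The difference in change between the SOCS genes and the STAT and JAK genes was not tested. In bulk samples, fewer cells of a type and less RNA per cell cannot be told apart.

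**Figure D1:**
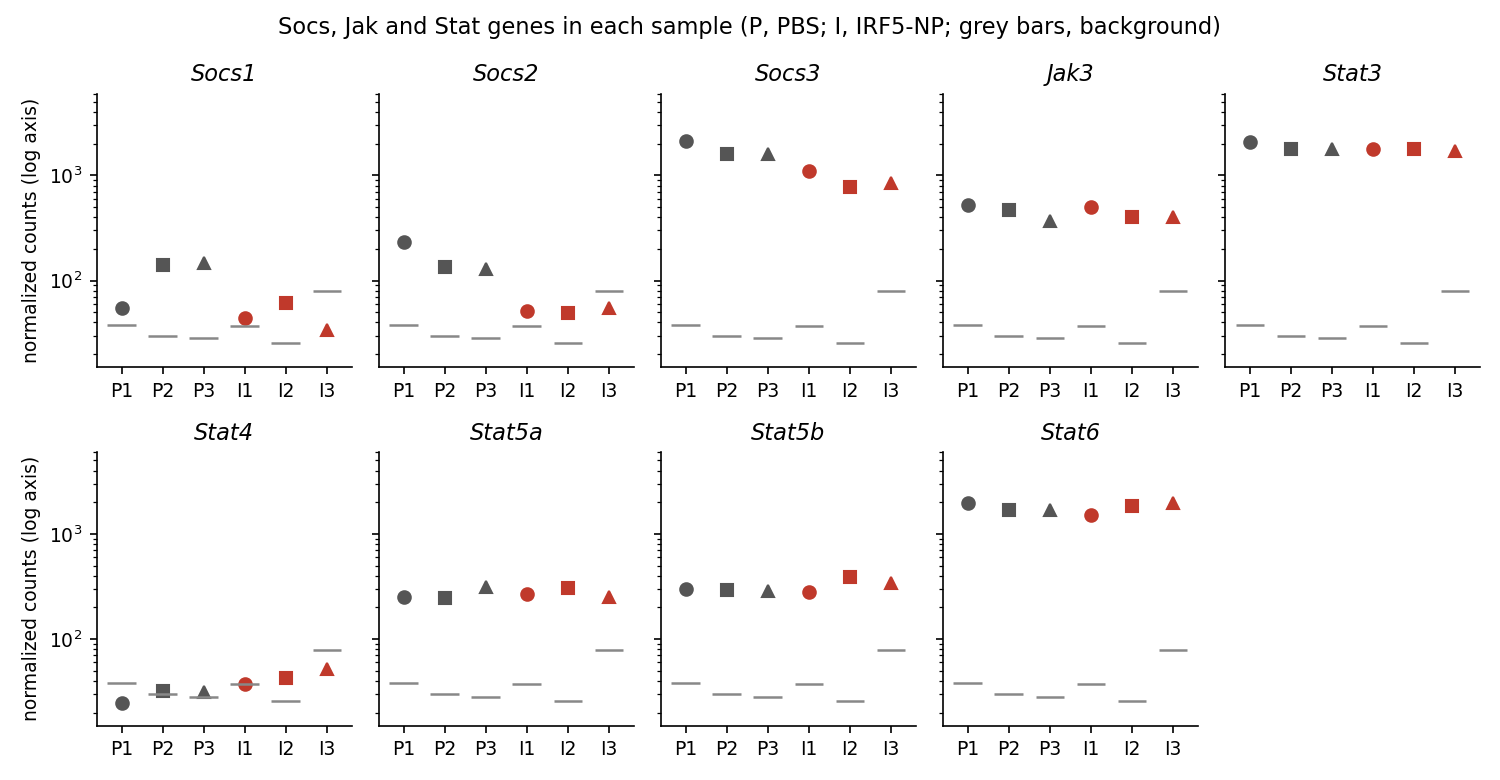
Normalized counts (log axis) of the 9 genes in each of the 3 PBS and 3 IRF5-NP samples, 1 panel per gene, with the background of each sample. Socs2 and Socs3 separate the groups, Socs1 overlaps because PBS 1 (55.0) lies below IRF5-NP 2 (61.7), and Stat4 lies close to the background.

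Socs3, which binds the shared IL-6 receptor chain gp130 and is induced by STAT3 downstream of IL-6 and IL-10, was counted at 2119, 1593 and 1585 normalized counts in PBS 1, 2 and 3. In IRF5-NP 1, 2 and 3 it was counted at 1106, 769 and 850. Every IRF5-NP sample lay below every PBS sample. The means were 1854 ± 374 (SD, n = 2) and 908 ± 176 (SD, n = 3), a log2 change of -1.03 (SE 0.24, 95% interval -1.60 to -0.47, limma adjusted p = 0.038), which is a fold of 2.04 (1.38 to 3.02). Socs3 was counted 327 times or more in every sample, so its level rests on the best depth among the SOCS genes. The call was lost without IRF5-NP 2 (-0.92, limma adjusted p = 0.135) or without IRF5-NP 3 (-0.99, limma adjusted p = 0.18). It was also lost when samples were scaled to a common median (-0.79, limma adjusted p = 0.082) or by quantiles (-0.74, limma adjusted p = 0.118). Without PBS 1, which left the average of PBS 2 and 3 as the only PBS value, the log2 change was -0.82. Only the size is given for that fit, which does not mean that the call held. The sign was negative under all 16 alternatives, with adjusted p from 0.00697 to 0.273 by limma or, in 1 of them, by the methods' t-test. Alternatives that change only the test, its adjustment, the variance trend or the filter on low values cannot move the estimate, so their sign was fixed.

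Socs2, known for limiting growth hormone signaling and a target of STAT5, was counted at 234, 134 and 129 normalized counts in the PBS samples. It was counted at 51.4, 49.6 and 54.6 in the IRF5-NP samples. The groups were well apart, and the 3 IRF5-NP samples lay within 5 normalized counts of each other. The means were 183 ± 72.6 (SD, n = 2) and 51.9 ± 2.51 (SD, n = 3), with a log2 change of -1.74 (SE 0.31, 95% interval -2.46 to -1.02, limma adjusted p = 0.0155), a fold of 3.35 (2.03 to 5.52). In IRF5-NP 3 the value was below background, from 21 counts, so the size of the change rests in part on a value at background. The call was lost without IRF5-NP 3 (-1.78, limma adjusted p = 0.0658), and it held under both other scalings (-1.50 and -1.63). Without PBS 1, which left the average of PBS 2 and 3 as the only PBS value, the log2 change was -1.33. Only the size is given for that fit, which does not mean that the call held. After background subtraction the log2 change was -2.79 and the call was lost (limma adjusted p = 0.162). Over the 16 alternatives the adjusted p ran from 0.00642 to 0.192, from limma or, in 1 of them, the methods' t-test.

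Socs1, which inhibits JAKs directly and is induced strongly by interferon, was counted at 55.0, 142 and 145 normalized counts in the PBS samples. It was counted at 43.8, 61.7 and 33.8 in the IRF5-NP samples. PBS 1 lay among the IRF5-NP samples, and PBS 2 and 3 lay above all of them. The means were 99.2 ± 62.6 (SD, n = 2) and 46.4 ± 14.2 (SD, n = 3), and the log2 change of -0.96 (SE 0.46, 95% interval -2.03 to 0.10) did not pass the test (limma adjusted p = 0.244). Without PBS 1, which left the average of PBS 2 and 3 as the only PBS value, the log2 change was -1.65. After background subtraction it was -2.36. Socs1 did not pass under any alternative, where the lowest adjusted p was 0.0686 (limma). Only 13 counts lay behind the value of IRF5-NP 3, which was below background. The interval of the Socs1 change holds both 0 and the estimated change of Socs3, so these data do not separate the 2 genes in size of change.

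Socs1 had the largest spread between PBS samples of the 9 genes, with a log2 SD of 0.97, and PBS 1 was its lowest PBS sample. The same sample was low for the interferon-stimulated genes Isg15 (264 normalized counts, against 1498 and 1612 in PBS 2 and 3) and Mx1 (96.4, against 490 and 471). Mx1 was named because its profile was among the 5 nearest to that of Socs1, and Isg15 was chosen after its values were seen. Their low values in PBS 1 therefore followed from the choice of genes. Whether PBS 1 stood apart for the same reason in Socs1, Isg15 and Mx1 was not tested.

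Stat3, which carries IL-6 and IL-10 signals, was counted at 2057, 1774 and 1773 normalized counts in the PBS samples and at 1782, 1785 and 1694 in the IRF5-NP samples. Its log2 change was -0.12 (95% interval -0.58 to 0.33, limma adjusted p = 0.771), so a fall as large as the estimate for Socs3 lies outside its interval. Stat6, which carries IL-4 and IL-13 signals, was counted at 1980, 1695 and 1677 in the PBS samples and at 1509, 1840 and 1959 in the IRF5-NP samples. The groups overlapped, with a log2 change of -0.05 (95% interval -0.56 to 0.45, limma adjusted p = 0.917). The changes of Stat3, Stat6 and Jak3 were positive under both other scalings, so no direction is given for them.

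Stat5a and Stat5b, which carry GM-CSF, IL-3 and growth hormone signals, lay between 247 and 388 normalized counts in all 6 samples. The log2 change was 0.05 for Stat5a (95% interval -0.44 to 0.55, limma adjusted p = 0.917) and 0.18 for Stat5b (-0.35 to 0.70, limma adjusted p = 0.703), and neither passed the test. Jak3, the kinase bound to the common gamma chain of the IL-2 and IL-4 receptors, lay between 364 and 527 normalized counts, with a log2 change of -0.11 (95% interval -0.64 to 0.41, limma adjusted p = 0.811). Stat4, which carries IL-12 signals, was counted at 24.9, 32.1 and 31.3 in the PBS samples and at 37.1, 43.0 and 52.0 in the IRF5-NP samples. These did not overlap, but Stat4 was above background in only 2 PBS samples and 1 IRF5-NP sample, and its log2 change of 0.62 did not pass (95% interval -0.13 to 1.36, limma adjusted p = 0.293).

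**Figure D2:**
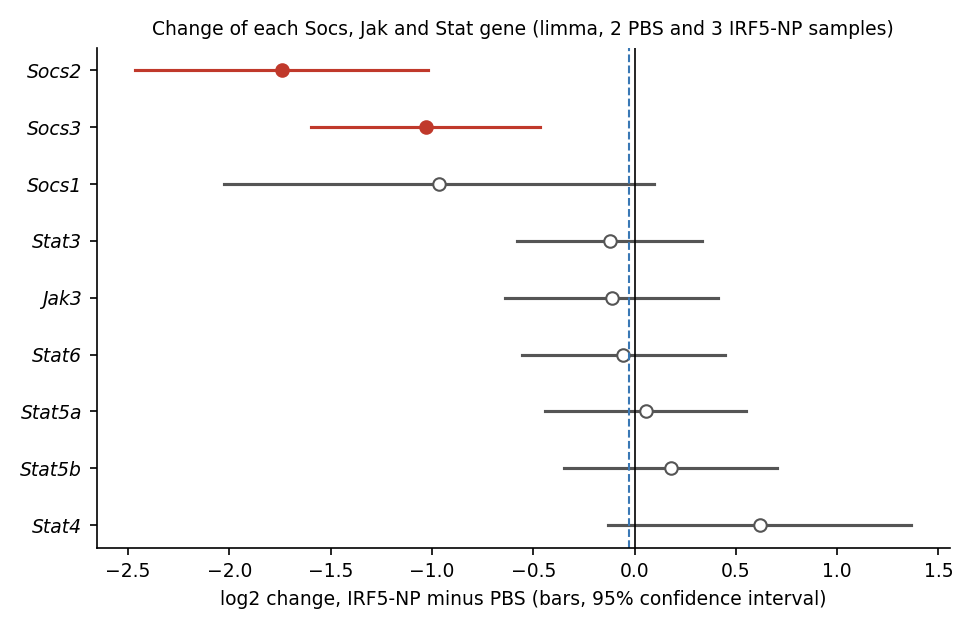
Log2 change (IRF5-NP minus PBS) of each of the 9 genes, with bars for the 95% interval from limma. The intervals of Socs2 (-2.46 to -1.02) and Socs3 (-1.60 to -0.47) lie below 0, and the other 7 include 0.

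Within each sample, the SOCS genes were also set against the STAT and JAK genes, as the log2 value relative to the PBS mean minus the median of the 6 STAT and JAK genes, which removes any scaling shared by all genes of the sample. For Socs3 this was 0.14, -0.15 and -0.14 in PBS 1, 2 and 3 and -0.70, -1.37 and -1.12 in IRF5-NP 1, 2 and 3. For Socs2 it was 0.35, -0.33 and -0.37 in the PBS samples and -1.72, -1.92 and -1.68 in the IRF5-NP samples. The groups did not overlap for either gene on this scale. On the plain scale 37.4% of all genes did not overlap, and no such share was computed on this scale. For Socs1 it was -0.75, 0.72 and 0.77 in the PBS samples and -0.975, -0.63 and -1.38 in the IRF5-NP samples, and PBS 1 again lay among the IRF5-NP samples. The median of the STAT and JAK genes itself lay between -0.07 and 0.12 in all 6 samples.

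**Figure D3:**
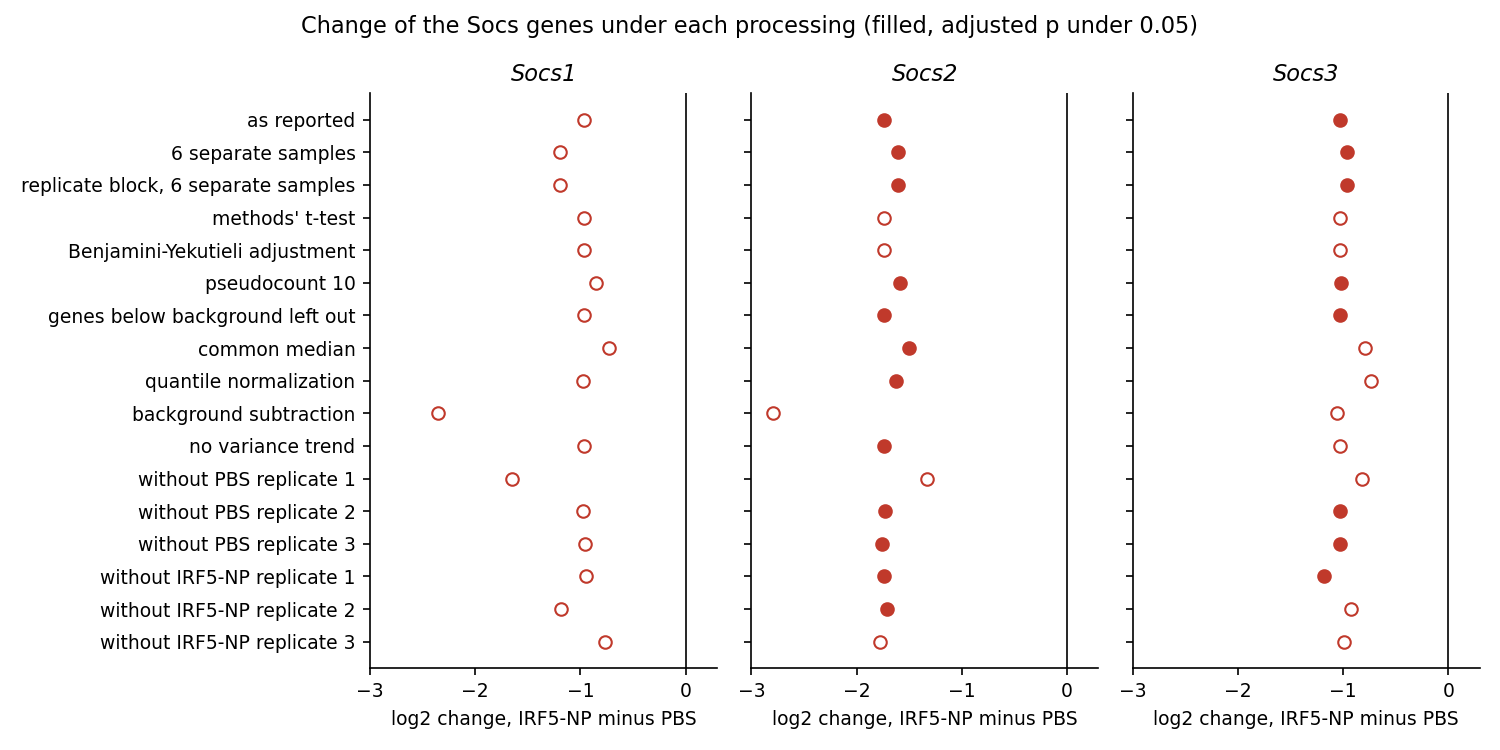
Log2 change (IRF5-NP minus PBS) of Socs1, Socs2 and Socs3 under the analysis reported and under each of 16 alternatives, with filled points where the adjusted p is under 0.05. All 3 genes stay negative throughout, Socs2 passes in 11 of the 16 and Socs3 in 7, and Socs1 in 0.

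The genes whose profile over the 5 samples was most like that of Socs3, by root mean square difference of centred log2 values among 628 genes, were Ier3 (0.129), Nfatc2 (0.138), Il4ra (0.152), Sqstm1 (0.156) and Itga5 (0.168). Those most like Socs1 were Fgf2 (0.331), H2-Ob (0.342), Mx2 (0.359), Il1rn (0.376) and Mx1 (0.377), at larger distances. Ier3, an immediate early gene, was at 5470, 3128 and 3153 normalized counts in the PBS samples and at 2352, 1768 and 1970 in the IRF5-NP samples. Being highest in PBS 1 and lower in every IRF5-NP sample, as Socs3 was, followed from its choice as the nearest profile. The change of Ier3 itself did not pass the test (log2 change -1.04, limma adjusted p = 0.0609). These are descriptions of likeness over few samples.

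The rest of the pathway was taken from lists of ligands, receptors, other regulators and target genes, of which 79 of 172 were on the panel and 67 were above background in at least 1 sample. Of the 79, 9 were lower and 2 higher past the threshold (11.4% and 2.53%, beside 7.03% and 2.52% of all genes), with a median log2 change of -0.25. The 21 ligands had 0 past the threshold, and 9 of them, including Ifng, Il4 and Il13, were below background in every sample. Ifnb1 (interferon beta) was at 71.6, 66.2 and 71.4 normalized counts in the PBS samples and at 13.3, 21.0 and 39.0 in the IRF5-NP samples. Il10, a known inducer of Socs3, was at 104, 40.4 and 45.1 in the PBS samples and at 17.1, 19.8 and 28.6 in the IRF5-NP samples. Both were above background in all 3 PBS samples and in 0 of the 3 IRF5-NP samples, so no size of change is given, and neither passed the test (limma adjusted p = 0.0644 and 0.0647). Il6, another inducer of Socs3, had a log2 change of 1.36 with overlapping groups and did not pass (limma adjusted p = 0.265).

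Of 13 receptors, Il15ra, the private chain of the IL-15 receptor, fell (299, 210 and 208 normalized counts with PBS, 82.8, 106 and 122 with IRF5-NPs, log2 change -1.28, limma adjusted p = 0.0318). Il27ra, the receptor chain for IL-27, which was below background in PBS 1, rose from 32.2, 51.7 and 53.8 to 93.3, 153 and 159 (log2 change 1.65, limma adjusted p = 0.0293), and Csf3r, the receptor for G-CSF, rose by 0.88 (limma adjusted p = 0.0459). Il4ra, the IL-4 receptor chain, was at 4378, 2700 and 2636 with PBS and 1892, 1660 and 1476 with IRF5-NPs, and its change of -1.03 lay just outside the threshold (limma adjusted p = 0.0503). Il4ra, Ifnar1 (-0.70) and Il3ra (0.54) did not pass. Of the 3 other regulators, Ptprc, Usp18 and Bcl6, 0 passed, with log2 changes between -0.20 and 0.21.

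Among the targets, 3 of 16 interferon response targets fell and 0 rose, beside 7.03% of all genes lower and 2.52% higher. No list was tested against these shares. Cxcl9, a chemokine induced by interferon gamma, was at 381, 877 and 910 normalized counts with PBS and 60.9, 76.1 and 85.8 with IRF5-NPs (log2 change -2.97, limma adjusted p = 0.00293). Cd274, which encodes PD-L1, was at 2494, 2718 and 2660 with PBS and 505, 782 and 608 with IRF5-NPs (log2 change -2.06, limma adjusted p = 0.00193). Tap1, a peptide transporter for antigen presentation, fell by 0.79 (limma adjusted p = 0.0459). Irf7, another target on the same list, was at 391, 717 and 747 with PBS and 753, 1423 and 1723 with IRF5-NPs. The groups were narrowly apart, as 37.4% of all genes did not overlap, and Irf7 did not pass the test (limma adjusted p = 0.102). Cxcl10 (-1.59) and Nos2 (-1.48) did not pass either.

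Of 8 STAT3 targets, 2 fell and 0 rose: Il1rn, the antagonist of IL-1 (log2 change -1.25, limma adjusted p = 0.036), and Vegfa, an angiogenic factor (-0.82, limma adjusted p = 0.0429). Myc (-0.70), Nfil3 (-0.39) and Hif1a (-0.27) did not pass. Of 18 STAT6 targets, 3 fell and 0 rose. Beside both lists, 7.03% of all genes were lower and 2.52% higher. Chil3 and Chil4, chitinase-like proteins of IL-4-activated macrophages, were the most changed. Chil3 was at 17089, 23631 and 23215 normalized counts with PBS and 822, 469 and 390 with IRF5-NPs (log2 change -5.23, limma adjusted p = 0.00018). Cdh1, which encodes E-cadherin, was at 80.9, 86.9 and 97.6 with PBS and 35.2, 40.8 and 36.4 with IRF5-NPs and passed (limma adjusted p = 0.0363), but it was above background in 1 of the 3 IRF5-NP samples, and its log2 change ran from -2.87 to -0.95 over the alternatives. Mrc1 (-2.02), Alox15 (1.61) and Ccl22 (-1.40, above background in 1 IRF5-NP sample) did not pass. Each alternative gave the same sign for these 11 genes. Alternatives that change only the test, its adjustment, the variance trend or the filter cannot move the estimate. The number still past the threshold fell to 4 of 9 lower and 2 of 2 higher without IRF5-NP 1. It fell to 4 of 9 and 0 of 2 without IRF5-NP 2 or IRF5-NP 3, and to 4 of 9 and 2 of 2 under each of the other scalings. With 6 separate samples, with or without the replicate number as a block, 9 of 9 and 2 of 2 were kept. The totals over all list genes, a different count, were then 15 lower and 3 higher without the block. With the block they were 15 lower and 5 higher.

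**Figure D4:**
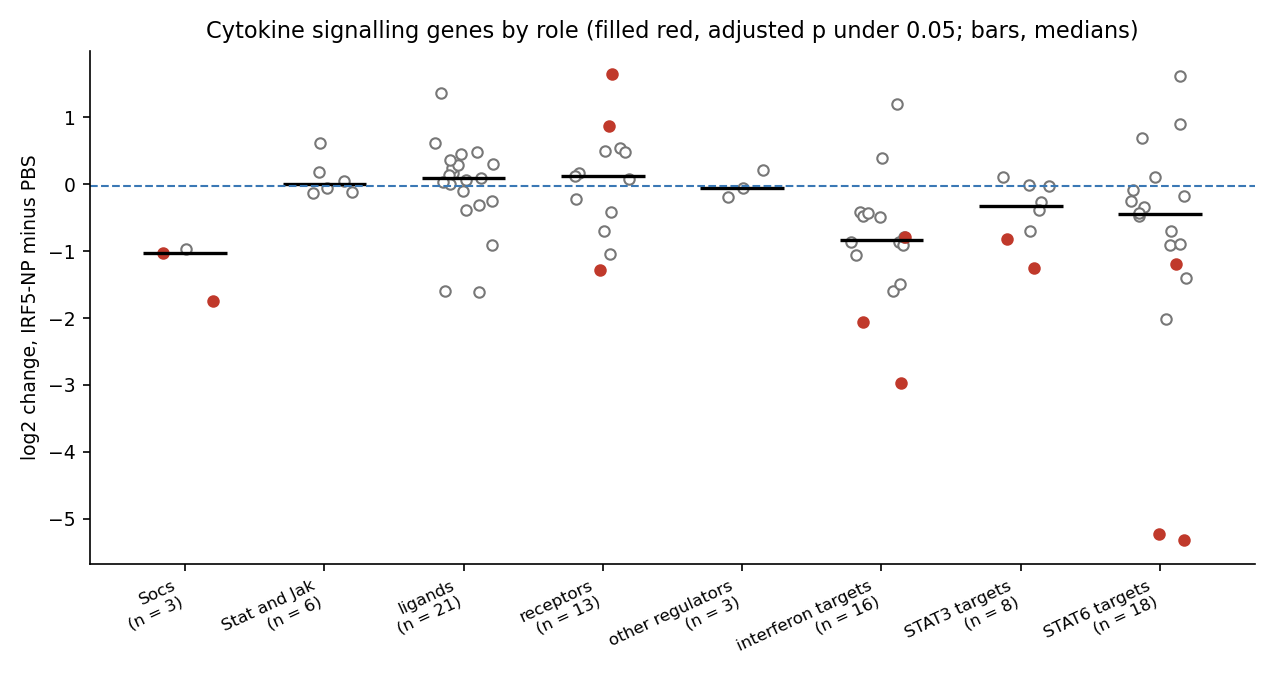
Log2 change (IRF5-NP minus PBS) of the measured genes of each role in the pathway, 1 point per gene, with filled points past the threshold, a bar at each median and a dashed line at the median of all genes (-0.03). The SOCS genes (median -1.03) and the interferon response targets (-0.83) lie lowest, and the STAT and JAK genes (-0.0003) and the ligands (0.09) lie near 0.

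Markers of other cell types the sort could hold were read from lists of marker genes. The summed levels did not overlap between groups for resident large peritoneal macrophages and for eosinophils and mast cells (higher with IRF5-NPs). They also did not overlap for monocytes and dendritic cells (lower) or for Ms4a1, the B cell marker measured (higher). They overlapped for neutrophils and NK cells. Among all genes taken singly, 37.4% did not overlap, and no such share was computed for sums. All 7 macrophage markers used for the sort or shared by macrophages were above background, with Mertk lower. Resident large peritoneal macrophage markers, 5 of 12 on the panel, had 2 higher (Timd4 and Selp), and their summed level was 5929 to 22977 normalized counts in the PBS samples and 27163 to 55172 in the IRF5-NP samples. The 4 of 7 monocyte markers summed to 20493 to 28332 with PBS and 5037 to 5397 with IRF5-NPs, mostly from Chil3, which is also a STAT6 target. The 8 of 10 neutrophil markers summed to 2261 to 7183 and 1591 to 2586, with Mmp8 lower, Csf3r higher and Camp below background throughout. The 7 of 9 dendritic cell markers summed to 412 to 459 and 192 to 252, with Itgax lower and Xcr1 and Dpp4 below background in every sample. No T cell or tumor marker of the lists was analysed here, and 1 of 7 B cell markers was (Ms4a1, higher, and below background in every PBS sample). The 10 of 12 eosinophil and mast cell markers summed to 314 to 426 and 626 to 1037, with 2 higher (Cpa3 and Hdc) and 5 below background in every sample. Hdc, the largest part of that sum in every sample, was at 143, 221 and 242 with PBS and at 415, 865 and 813 with IRF5-NPs. Cpa3 was above background in 0 PBS samples and 2 IRF5-NP samples. Kit (-0.70) and Siglecf (-0.71) went the other way without passing, and Fcer1a changed by 0.10. Of 7 NK cell markers 2 were on the panel, summing to 69.5 to 104 and 59.5 to 91.0 normalized counts, with 0 past the threshold and Gzma below background throughout. Beside these marker counts, 7.03% of all genes were lower and 2.52% higher. The part of these cell types in the SOCS changes was not tested.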

How the data were processed

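Gene expression was measured in 3 PBS and 3 IRF5-NP samples with the NanoString nCounter Myeloid Innate Immunity Panel. The deposited values are a signal, the normalized count of each probe on a linear scale. According to the paper's methods, which describe cultured macrophages, the authors used NanoStringQCPro for quality checks and nSolver to scale each sample by its housekeeping genes. The table holds 754 genes, 8 negative and 6 positive controls. All 754 gene values of each sample were whole multiples of 1 factor (tolerance 0.01 normalized counts), which gave total counts of 683472 to 1830318 and the background (negative control mean plus 2 SD). Values from few counts are less precise. Symbols were matched to RefSeq, 744 by symbol and 9 by synonym. The members and lists were chosen with earlier results of these data known.

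The 6 samples were grouped by their labels. PBS 2 and 3 (chi-square p = 0.0782) were averaged, which left 2 against 3. Log2(value + 1) was tested with limma 3.58.1 in R 4.3.3, with a mean-variance trend, two-sided, Benjamini-Hochberg adjusted over 754 genes, at a threshold of 0.05. The script was tested on simulated data. Same-numbered samples deviated together over 630 genes (r of 0.203, 0.187 and 0.102 for numbers 1, 2 and 3, against -0.191 to 0.163 for other pairs), so the numbers were treated as pairing the samples in an alternative fit. PBS 3 deviated more closely with IRF5-NP 2 (0.163) than with IRF5-NP 3 (0.102), and that fit keeps apart PBS 2 and 3, which were otherwise counted as 1 sample. It called 135 genes, against 121 with 6 separate samples and no block and 72 with PBS 2 and 3 averaged.

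Genes named were the members (1 gene that the symbol rule finds stayed in the fit and is not reported here), the list genes past the threshold and the 3 others of each list with the largest change above background, the 5 nearest profiles to Socs3 and Socs1, Isg15 (chosen after its values were seen), and the delivered Irf5. Ikbkb was not analysed here. The alternatives were another pseudocount, background subtraction, a filter on low values, other scalings, tests and adjustments, the pairing, and leaving out each sample.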

Additional observations from a re-analysis of the deposited data

How the results depend on the processing

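The count of genes past the threshold was 72. It was 121 with 6 separate samples, 135 with the replicate block, 0 with the methods' t-test (125 at an unadjusted p under 0.05, against 191 with limma), 21 with the Benjamini-Yekutieli adjustment, 24 after background subtraction, 41 without the variance trend, and 21 to 83 with 1 sample left out. Genes higher numbered 19, and 42 and 35 under the common median and quantile scalings, which moved the median change of all genes by 0.24 and 0.13. Of the members, 2 were lower, and this was 0 with the t-test, 0 with Benjamini-Yekutieli, 0 after background subtraction, 1 under each scaling, 1 without the trend, and 0 to 2 with 1 sample left out. Of the pathway lists, 9 were lower, and this was 15 with 6 separate samples, 15 with the block, 0 with the t-test, 4 with Benjamini-Yekutieli, 4 and 5 under the scalings, 5 after background subtraction, 5 without the trend, and 4 to 10 with 1 sample left out. Of these lists 2 were higher, and this was 5 with the block, 4 under the quantile scaling, 1 after background subtraction, 0 with the t-test, with Benjamini-Yekutieli and without the trend, and 0 to 2 with 1 sample left out. The Socs3 change of -1.03 lost its call with the t-test (adjusted p = 0.254), Benjamini-Yekutieli (0.273) and no trend (0.0928), after background subtraction (-1.06), under the scalings (-0.79 and -0.74), and it ran from -1.18 to -0.82 with 1 sample left out. With 6 separate samples the changes were -1.60 for Socs2, -0.96 for Socs3 and -1.19 for Socs1, both with and without the replicate block, and no member changed its call. Signs turned for Jak3 (0.125 and 0.0808 under the scalings, -0.228 to 0.0635 with 1 sample left out), Stat3 (0.11 and 0.21), Stat6 (0.18 and 0.24, and -0.133 to 0.0609) and Stat5a (-0.0285 to 0.135 with 1 sample left out). The cause was not tested in these cases. A count model (2 alternatives) was planned but not run. Low counts limit Socs1, Socs2 and Stat4, most of all in IRF5-NP 3.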
